A study of Mus musculus with 9 samples.

Results

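The genes described here encode the TGF-beta ligands (Tgfb1, Tgfb2 and Tgfb3) and their receptors (Tgfbr1, Tgfbr2 and Tgfbr3). They also encode proteins that bind the latent complex (Ltbp1 and Ltbp3), the signal transducer Smad3 and the corepressor Skil. They were taken by gene name from the deposited table of all genes, where all 10 were found among 33495 rows. The study sequenced RNA of sorted crest cells from E9.5 mouse embryos (strain C57BL/6), with 3 samples in each of 3 groups. Embryo explants without head and tail recovered for 1 h, were given PBS or 10 µM endothelin-1 (ET-1), and were cultured for 12 to 15 h before crest cells carrying a genetic label were sorted. PBS and ET-1 were each given to wild-type explants, and ET-1 was also given to explants in which the transcription factor gene Mef2c was conditionally inactivated in the crest (the mutant below), while no mutant received PBS. The sources used here name neither the Cre driver nor the cell label, and they do not say whether a sample was an embryo or a pool, so the deposited p-values may measure technical spread. The table held a single value per group in FPKM (fragments scaled to transcript length and to the sequenced total), so no value below has a replicate error.

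TGF-beta is secreted in a latent complex, in which its propeptide is bound to a latent TGF-beta binding protein of the matrix, and has to be released before it can act. The free ligand binds the type II receptor Tgfbr2, which recruits and phosphorylates the type I receptor Tgfbr1, and this kinase activates Smad2 and Smad3, which enter the nucleus with Smad4. In the neural crest the pathway is known for its part in forming facial bone, palate and the smooth muscle of the great arteries, and the type II receptor is the entry point for the 3 ligands.

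Group depth, recovered as pooled reads from genes of 1 exon, was 21507319 reads in the PBS group, 19801223 in the ET-1 wild-type group and 46930106 in the mutant group. Intervals below are exact 95% intervals on these reads. They hold counting error alone, and PCR copies are not independent molecules. Mef2c stood at 7.71, 25.2 and 10.1 FPKM in the same order. All 8 crest markers had values in FPKM, with a summed level of 167, 234 and 244 FPKM, although Twist1 was at 0.936 FPKM in the mutant. Sums of other markers were 3.14, 2.77 and 2.11 FPKM for 5 of 7 endothelial genes, 32.98, 31.5 and 17.6 FPKM for 5 of 6 erythroid genes, 6.22, 5.96 and 13.2 FPKM for 2 of 4 macrophage genes, and 77.8, 73.7 and 70.8 FPKM for 3 of 5 neural tube genes. In bulk samples fewer cells of a type and less RNA per cell cannot be told apart.

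Tgfbr2 was the 1 gene of the 10 that passed the test with ET-1. Its promoter is shown with the promoter of its partner Tgfbr1, whose RNA was the most abundant of the 10 in each group. Both windows run from 250 bases before to 50 bases after the start site in RefSeq's annotation of GRCm38.p6, the Tgfbr2 window at chr9:116175314-116175613 on the minus strand and the Tgfbr1 window at chr4:47352972-47353271 on the plus strand. Capitals mark the CCAAT box (CCAAT, or ATTGG where it lies on the other strand) and the GC box (GGGCGG).
Tgfbr2: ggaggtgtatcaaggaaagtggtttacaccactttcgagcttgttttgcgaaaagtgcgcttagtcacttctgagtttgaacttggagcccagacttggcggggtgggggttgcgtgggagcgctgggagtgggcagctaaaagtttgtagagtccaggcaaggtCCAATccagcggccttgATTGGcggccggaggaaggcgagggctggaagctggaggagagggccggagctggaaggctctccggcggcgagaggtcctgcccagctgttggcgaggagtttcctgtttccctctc
Tgfbr1: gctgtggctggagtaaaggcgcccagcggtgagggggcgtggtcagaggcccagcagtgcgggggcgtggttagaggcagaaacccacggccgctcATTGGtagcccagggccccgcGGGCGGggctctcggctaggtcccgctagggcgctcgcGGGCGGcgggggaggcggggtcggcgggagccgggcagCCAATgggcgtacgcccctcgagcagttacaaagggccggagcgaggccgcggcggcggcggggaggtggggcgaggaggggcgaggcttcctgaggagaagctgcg

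The Tgfbr2 window held 2 CCAAT boxes on opposite strands and 0 GC boxes. The Tgfbr1 window held 2 of each. Among 32851 promoter windows of this length, 37.4% held a CCAAT box and 35.7% a GC box on either strand. Neither window held a match to the MEF2 consensus or a TATA box (TATAAA), which 3.19% and 13.6% of all windows held, and neither held an AP-1 site (TGANTCA), which 7.81% held. The half-site bound by SMAD proteins (CAGAC on either strand) occurred once in the Tgfbr2 window, and in 49.6% of all windows. Windows were found for 7 of the 10 genes (Tgfb1, Tgfb2, Tgfbr1, Tgfbr2, Ltbp1, Ltbp3 and Smad3, 9 windows in all), and 0 of the 9 held the MEF2 consensus. These letters describe short windows only, and a match is not evidence of binding.

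FPKM is per length, so levels of the 10 genes are set side by side. The RNA was amplified, and scaling to length does not remove unequal amplification between genes. With PBS the order was Tgfbr1, Smad3, Skil, Tgfb2, Ltbp1, Tgfbr3, Tgfb3, Ltbp3, Tgfbr2 and Tgfb1. Of the 15624 genes with at least 1 FPKM in some group, 87.7% had a lower level than Tgfbr1 with PBS and 1.44% a lower level than Tgfbr2. Tgfb1, under 1 FPKM in all 3 groups, is not among these genes. The counting intervals of Smad3 and Skil overlapped, as did those of Tgfb2 with Ltbp1, Ltbp1 with Tgfbr3, and Tgfbr2 with Tgfb1. Overlap of intervals is not a test of a difference, and the order of neighbours was not tested. With ET-1 in wild type Tgfbr3 moved ahead of Tgfb2 with overlapping intervals, and intervals also overlapped for Tgfb2 with Ltbp1 and for Ltbp3 with Tgfbr2. In the mutant the overlapping neighbours were Ltbp1 and Tgfbr3. Tgfbr1, Smad3 and Skil were the 3 highest and Tgfb1 the lowest in each of the 3 groups.

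**Figure D1:**
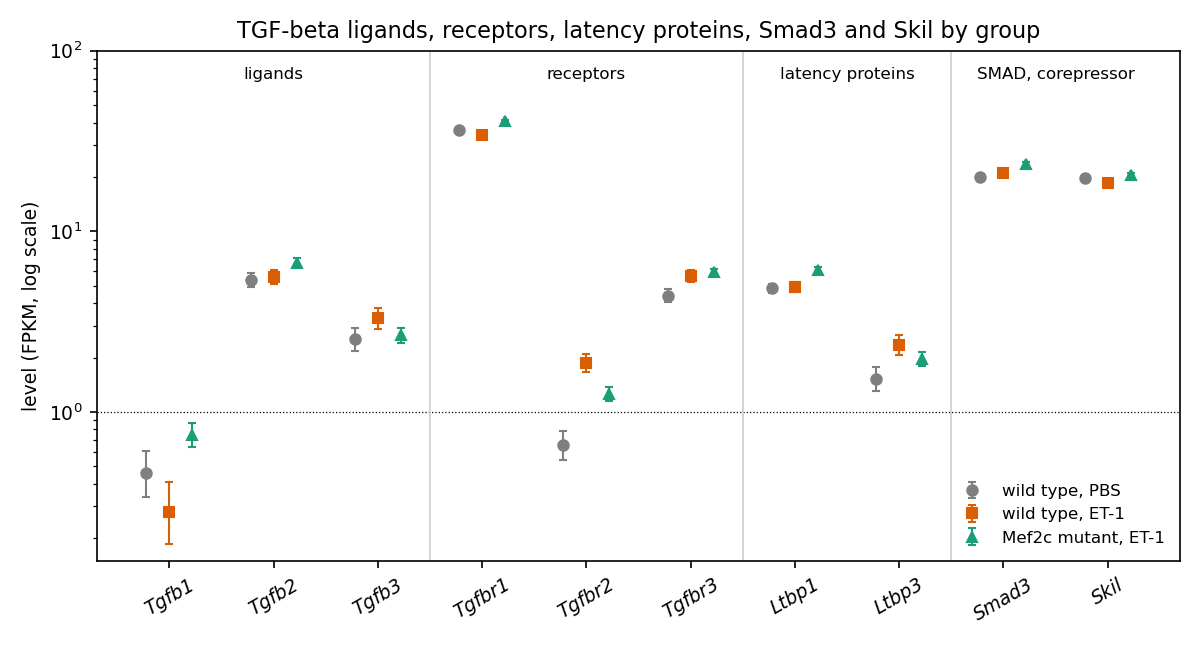
Level of each of the 10 genes (FPKM, log axis) in wild type with PBS (circles), wild type with ET-1 (squares) and the Mef2c mutant with ET-1 (triangles), with 95% counting intervals as bars and a dotted line at 1 FPKM. Tgfbr1 lies between 34.2 and 40.7 FPKM, and Tgfbr2 is at 0.655, 1.87 and 1.25 FPKM.

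The first comparison asks which crest genes respond to the peptide, and sets ET-1 against PBS in wild type. A gene was called when the p-value in the authors' deposited table, adjusted by the Benjamini-Hochberg method over the 15395 genes that reached 1 FPKM in at least 1 of its groups, was under 0.05. Of all these genes, 0.533% were called, 0.39% as higher and 0.143% as lower, and 4.51% had an unadjusted deposited p-value under 0.05. Among the 10 genes 9 were tested, 1 was higher and 0 were lower, and the median log2 fold of the 9, computed on FPKM + 1, was 0.08 against 0.01 over all genes tested. Tgfb1 stayed under 1 FPKM in both groups and was left out of the adjustment, with an unadjusted deposited p-value of 0.690.

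Tgfbr2 encodes the serine/threonine kinase that binds the ligand (ENSMUSG00000032440, chromosome 9, 115993415 to 116084383 in mm9). In PBS it measured 0.655 FPKM (interval 0.541 to 0.787, 114 pooled reads), in ET-1 wild type 1.87 FPKM (1.66 to 2.09, 299 reads) and in mutant cells 1.25 FPKM (1.14 to 1.37, 476 reads). The PBS value was the lowest and the mutant value lay between the others, and the 3 intervals did not overlap. Tgfbr2 rose 2.85-fold with ET-1 (interval 2.29 to 3.57). Its adjusted p = 0.0223 was computed from the deposited p-value of 0.000106 in the authors' deposited table. The gene passed the filter on low values through the ET-1 group alone, and without the filter its adjusted p was 0.0259. At 5 FPKM or more in either group it was not tested.

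The receptor that Tgfbr2 recruits was not called. Tgfbr1, the type I receptor kinase (ENSMUSG00000007613, chromosome 4, 47366094 to 47427803 in mm9), was at 36.4 FPKM after PBS, 34.2 FPKM after ET-1 and 40.7 FPKM in mutant cells. With ET-1 its ratio to PBS was 0.941 (interval 0.904 to 0.980, adjusted p = 1 from the authors' deposited p-values). Tgfbr1 RNA was thus 55.5 times as abundant per length as Tgfbr2 RNA with PBS, 18.3 times with ET-1 and 32.5 times in the mutant. Tgfbr3, or betaglycan, a coreceptor that presents ligand to Tgfbr2 (ENSMUSG00000029287, chromosome 5, 107535589 to 107718648 in mm9), was at 4.40, 5.66 and 5.93 FPKM. Its ratio with ET-1 was 1.28 (interval 1.15 to 1.43), which was not called. The summed level of the 3 receptors was 41.4 FPKM after PBS, 41.8 FPKM after ET-1 and 47.9 FPKM in mutant cells, and Tgfbr1 made up most of it.

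Markers of other cells that carry Tgfbr2 are given beside its rise. Of the endothelial markers, Pecam1 was at 0.483 FPKM after PBS and 0.303 FPKM after ET-1, Cdh5 at 0.464 and 0.0904 FPKM, Tek at 0.168 and 0.311 FPKM and Kdr at 0.377 and 0.402 FPKM, while Egfl7 was at 1.65 and 1.66 FPKM, and Tie1 and Emcn had at most 9 reads. The summed level of the 4 smooth muscle markers was 4.84 FPKM after PBS and 5.81 FPKM after ET-1, and 0 of the 2 that were tested passed. Of the 8 crest markers 3 rose with ET-1, Sox10 from 35.7 to 61.0 FPKM, Ngfr from 23.4 to 39.0 FPKM and Ets1 from 13.6 to 31.7 FPKM. The other 5 were not called, with Tcfap2a at 37.5 and 45.9 FPKM, Pax3 at 34.8 and 36.98 FPKM, Foxd3 at 14.5 and 15.3 FPKM, Dlx2 at 5.76 and 3.40 FPKM and Twist1 at 1.496 and 1.28 FPKM after PBS and ET-1. The part of these markers in the rise of Tgfbr2 was not tested.

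The ligands were led by Tgfb2 in each group. Tgfb2 (ENSMUSG00000039239, chromosome 1, 188447529 to 188529868 in mm9) was at 5.36 FPKM after PBS, 5.61 FPKM after ET-1 and 6.71 FPKM in mutant cells. Tgfb3 (ENSMUSG00000021253, chromosome 12, 87397755 to 87419991) was at 2.53, 3.31 and 2.65 FPKM, highest in wild type with ET-1. Tgfb1 (ENSMUSG00000002603, chromosome 7, 26472574 to 26490095) was at 0.459, 0.280 and 0.749 FPKM, resting on 48, 27 and 171 pooled reads. Tgfb2 was 2.12, 1.69 and 2.53 times as abundant per length as Tgfb3 in the same order, and 11.7, 19.99 and 8.95 times as abundant as Tgfb1. With ET-1 the ratio to PBS was 1.04 for Tgfb2 (interval 0.920 to 1.19), 1.31 for Tgfb3 (1.07 to 1.60) and 0.611 for Tgfb1 (0.367 to 0.999). Neither Tgfb2 nor Tgfb3 passed the test.

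Both latency genes were expressed at lower levels than the kinase Tgfbr1. Ltbp1 encodes a matrix protein that binds the latent complex and anchors it to fibrillin-rich fibres (ENSMUSG00000001870, chromosome 17, 75404869 to 75791852 in mm9), and was at 4.83 FPKM after PBS, 4.93 FPKM after ET-1 and 6.09 FPKM in mutant cells. Ltbp3, its relative, which is known for its part in bone and tooth (ENSMUSG00000024940, chromosome 19, 5740904 to 5758532), was at 1.53, 2.36 and 1.96 FPKM. After Tgfbr2, Ltbp3 had the largest ratio of the 10 genes with ET-1, at 1.55 (interval 1.26 to 1.90), and the ratio of Ltbp1 was 1.02 (0.936 to 1.11), and neither passed the test. The sources used here do not say whether reads were counted by strand, so for any of the 10 genes reads of a gene on the other strand could not be told apart.

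Inside the cell, Smad3 and Skil were well expressed and were not called. Smad3, the receptor-activated transducer (ENSMUSG00000032402, chromosome 9, 63494574 to 63605801 in mm9), was at 19.99 FPKM after PBS, 21.1 FPKM after ET-1 and 23.5 FPKM in mutant cells. Skil, which encodes SnoN, a corepressor that binds SMAD proteins and is itself induced by the pathway (ENSMUSG00000027660, chromosome 3, 30993980 to 31021499), was at 19.7, 18.6 and 20.6 FPKM. The ratio with ET-1 was 1.06 for Smad3 (interval 0.997 to 1.12) and 0.944 for Skil (0.903 to 0.988), with an adjusted p = 1 for both from the authors' deposited p-values.

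**Figure D2:**
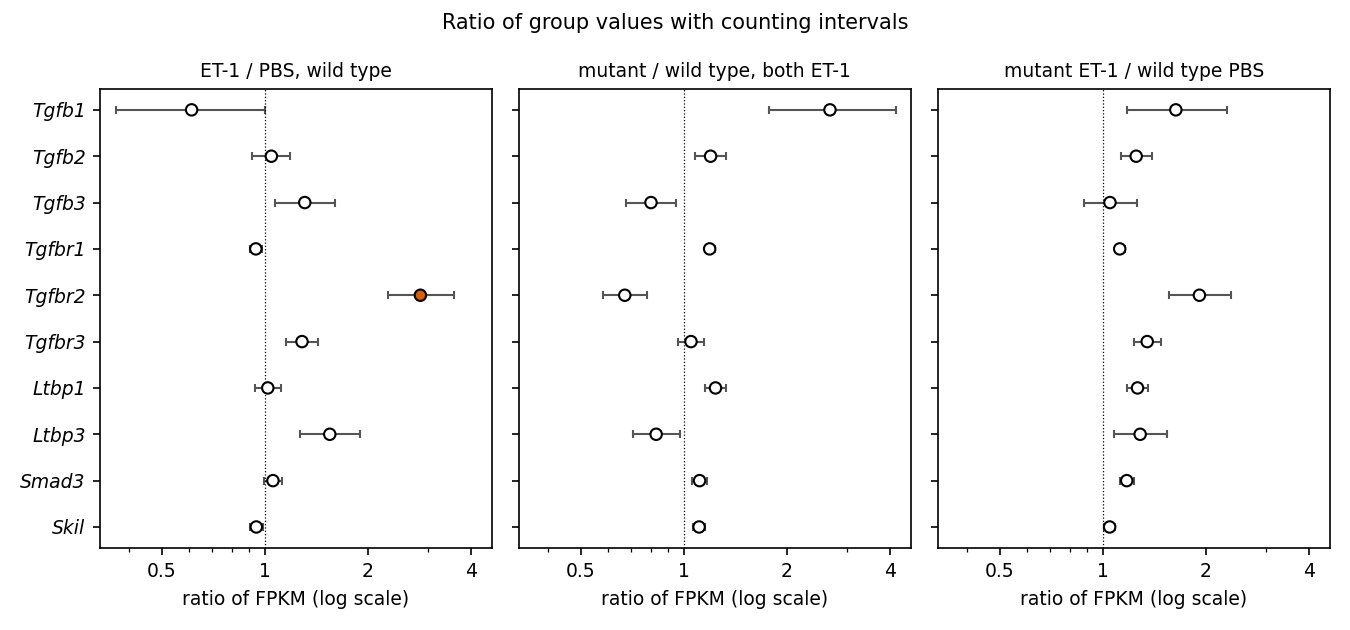
Ratio of FPKM (log axis) for each of the 10 genes with ET-1 against PBS in wild type (left), in mutant against wild-type cells given ET-1 (middle) and in the mutant with ET-1 against wild type with PBS (right), with 95% counting intervals as bars and a filled point for a gene that was called. The filled point is Tgfbr2 at 2.85, and the right panel was not tested.

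The second comparison asks which genes depend on Mef2c, and sets mutant against wild-type cells that had all been given ET-1. It shares the ET-1 wild-type samples with the first, so each comparison's values are given side by side. Of 15459 genes tested 4.94% were called, 1.18% as higher in the mutant and 3.75% as lower. Of the 10 genes 9 were tested and 0 were called. By the deposited p-value under 0.05 alone, 1 of the 9 passed, where 11.6% of all genes tested did. The median log2 fold of the 9 was 0.14, against 0.05 over all genes tested.

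Tgfbr2 was the gene with that p-value. Its mutant level was 0.672 times that of wild type given ET-1 (interval 0.580 to 0.779), at a p-value of 0.0363 in the authors' deposited table and an adjusted p = 0.362. The authors' deposited table of induced genes lists Tgfbr2 with a normalized induction fold of 2.82, and marks it both for a MEF2 motif and for dependence on Mef2c. It is the 1 gene of the 10 in that table of 406, all of which had a deposited p-value under 0.05 with ET-1. In the authors' deposited table all 73 genes marked as dependent had a p-value under 0.05 for the mutant and a lower value there, and 0 unmarked genes met both conditions. The dependence mark thus coincided with the unadjusted p-value, and 34 of the 73 were called once p-values were adjusted over all genes. Of the 8 crest markers 1 was called in the mutant, Ets1, which was lower at 24.1 against 31.7 FPKM, and the ratio to wild type was above 1 for 4 of the 8 and below 1 for 4, with Sox10 at 1.16 and Pax3 at 1.22. Their part in the value of Tgfbr2 was not tested. The MEF2 motif mark was carried by 338 of the 406 genes, or 83.3%. The sources used here do not state the window searched for that motif.

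The other 8 tested genes were not called in the mutant either. Above wild type were Ltbp1 with a ratio of 1.24 (interval 1.15 to 1.33), Tgfb2 with 1.20 (1.08 to 1.33), Tgfbr1 with 1.19 (1.15 to 1.23), Smad3 and Skil with 1.11 each, and Tgfbr3 with 1.05 (0.962 to 1.14). Below were Tgfb3 with 0.801 (0.678 to 0.948) and Ltbp3 with 0.830 (0.708 to 0.974). For Tgfbr1 a narrow counting interval above 1 stood beside an adjusted p = 0.755 from the authors' deposited p-values. Tgfb1, left out of the adjustment here too, had a ratio of 2.67 (interval 1.77 to 4.17) and an unadjusted deposited p-value of 0.279. Macrophages, a known source of this ligand, had Cd68 at 5.54 FPKM in ET-1 wild type and 12.4 FPKM in mutant cells, which was called, and Csf1r at 0.413 and 0.834 FPKM, while Aif1 was at 0.952 FPKM and listed at 0, and Ptprc had 0 reads in both. Platelets, another known source, had Itga2b at 0.676 and 0.637 FPKM and Pf4 and Ppbp at 0.172 and 0.187 FPKM in wild type and listed at 0 in the mutant. Their part in the level of Tgfb1 was not tested.

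The mutant with ET-1 and wild type with PBS differ in genotype and treatment together and have no deposited p-value, so their values are a description. The ratio was above 1 for all 10 genes, from 1.05 for Skil (interval 1.01 to 1.09) and Tgfb3 (0.878 to 1.26) to 1.91 for Tgfbr2 (1.56 to 2.37). Over 15453 genes the median ratio was 1.05 and 58.0% of genes lay above 1. These genes include 9 of the 10 and leave out Tgfb1, which was under 1 FPKM in both groups. For Tgfbr2 the mutant stood 0.599 FPKM above the PBS value, where wild type with ET-1 stood 1.21 FPKM above it. The mutant difference was thus 49.4% of the wild-type difference. That share has no interval and shifts with any error in the single ET-1 wild-type value, by which Tgfbr2 had been called. Against wild type given ET-1 the mutant was not called. For Tgfbr3 the corresponding differences were 1.53 and 1.25 FPKM, and for Ltbp3 0.434 and 0.836 FPKM. For Tgfb3 they were 0.122 and 0.781 FPKM.

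Genes with log2 folds most like those of Tgfbr2 were sought by the distance between pairs of log2 folds on FPKM + 1. The search covered 8579 genes with at least 5 FPKM in some group, a level that Tgfbr2 itself did not reach. The added 1 lowers the log2 fold of Tgfbr2 with ET-1 from 1.51 to 0.79. The genes found thus had smaller ratios with ET-1 than the 2.85 of Tgfbr2. The nearest were a U6 small nuclear RNA copy at a distance of 0.036, a SNORD53 copy at 0.040, both of which have near-identical copies, and Ptprm at 0.045. Ptprm, a receptor tyrosine phosphatase, stood at 3.45, 6.48 and 4.85 FPKM. With 3 group values a likeness of this kind holds little information.

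The wider pathway was taken from lists of genes by role. These lists were chosen with earlier results of these data known, so their shares of calls describe the lists and test nothing. Among genes that activate the latent ligand or hold it in the matrix, 12 of 20 were tested with ET-1, of which 1 rose and 0 fell (median log2 fold 0.28), where 0.39% of all genes tested rose. By the unadjusted deposited p-value under 0.05, 5 of the 12 passed, against 4.51% of all genes tested. The gene that rose was Thbs1, which encodes thrombospondin 1, an activator of latent TGF-beta, at 3.48 FPKM after PBS, 13.8 FPKM after ET-1 and 16.1 FPKM in mutant cells. Its rise was 3.96-fold (interval 3.57 to 4.40), and the mutant differed from wild type by a ratio of 1.17 (1.10 to 1.24), which was not called. Values rather than calls are given for the most abundant of the list, Itgb1, an integrin subunit, at 83.0, 93.3 and 98.2 FPKM, Fbn2, a fibrillin to which latent complexes are tied, at 21.8, 27.7 and 21.7 FPKM, and Mmp14, a membrane metalloprotease, at 14.0, 15.0 and 13.1 FPKM. In the mutant 0 of the 12 passed (median -0.09), where 4.94% of all genes tested did. By the unadjusted deposited p-value under 0.05, 2 of the 12 passed, against 11.6% of all genes tested. The authors' deposited table of induced genes lists 5 of this list, Thbs1, Fbn1, Fbn2, Emilin1 and Mmp2, with Fbn2 marked as dependent. These 5 are the genes that passed by the unadjusted p-value with ET-1, a limit that every gene listed there met, so they are not separate support.

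Other receptors of the superfamily, intracellular genes of the SMAD pathway and related ligands held 0 calls in either comparison. Over all genes tested, 0.533% were called with ET-1 and 4.94% in the mutant. By the unadjusted deposited p-value under 0.05, the receptor list had 0 genes with ET-1 and 1 in the mutant. The intracellular list had 1 and 1, and the ligand list 0 and 0. Over all genes tested the shares by that p-value were 4.51% and 11.6%. Of 14 other receptors and coreceptors 10 were tested, with a median log2 fold of -0.03 with ET-1 and 0.01 in the mutant. The BMP type II receptor gene Bmpr2 was at 30.7, 30.7 and 33.6 FPKM, and the activin type II receptor genes Acvr2a and Acvr2b at 25.1, 21.8 and 26.8 FPKM and 25.7, 23.5 and 26.4 FPKM. Each of these type II receptors was thus far more abundant per length than Tgfbr2. Of 22 intracellular genes 20 were tested, with medians of 0.05 and 0.14. They were led by the coactivator genes Crebbp (45.6, 47.9 and 54.7 FPKM) and Ep300 (38.7, 41.8 and 46.5 FPKM) and the deubiquitinase gene Usp9x (40.1, 41.8 and 47.8 FPKM). The partners and the inhibitor of Smad3, singled out outside the rule with their values known, were at 38.8, 34.8 and 34.1 FPKM for Smad2 and 36.8, 37.8 and 38.8 FPKM for Smad4, with the inhibitory Smad7, a target of the pathway, at 7.90, 7.70 and 6.26 FPKM. Of 14 activin, nodal and GDF ligands and antagonists 5 were tested, with medians of -0.01 and -0.13, led by Fstl1 (45.3, 48.1 and 42.7 FPKM), Gdf11 (12.6, 12.5 and 13.9 FPKM) and the activin antagonist Fst (7.10, 8.62 and 6.84 FPKM).

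The list of genes that TGF-beta induces in many cell types held further calls. It too was chosen with earlier results of these data known, and an excess over all genes was not tested. Of 17 tested with ET-1, 3 rose and 0 fell, where 0.39% of all genes tested rose, and the median log2 fold was 0.25. By the unadjusted deposited p-value under 0.05, 6 of the 17 passed, against 4.51% of all genes tested. The authors' deposited table of induced genes lists 6 of this list, Tpm1, Cyr61, Ctgf, Fn1, Junb and Postn, with 0 marked as dependent. These 6 are the genes that passed by the unadjusted p-value, a limit that every gene listed there met, so they are not separate support. Ctgf and Cyr61, matricellular growth regulators that are also induced by other signals, went from 20.5 to 36.2 FPKM and from 33.8 to 55.6 FPKM, and Tpm1, an actin-binding tropomyosin, from 16.2 to 29.97 FPKM. In the mutant the 3 genes stood at 37.8, 58.4 and 34.9 FPKM and were not called against wild type. Fn1, fibronectin, was the most abundant of the list at 44.7, 59.4 and 60.2 FPKM and was not called. In the mutant 0 of 18 tested were higher and 2 were lower, where 3.75% of all genes tested were lower, with a median of 0.06, and 6 of the 18 had an unadjusted deposited p-value under 0.05, against 11.6% of all genes tested. The 2 lower genes were Bhlhe40, a transcriptional repressor, from 12.4 to 6.25 FPKM, a ratio of 0.504 (interval 0.456 to 0.557), and the fibrillar collagen gene Col3a1 from 1.94 to 0.781 FPKM, a ratio of 0.402 (0.343 to 0.472). Neither had been called with ET-1, with 12.7 and 1.96 FPKM in wild type with PBS.

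**Figure D3:**
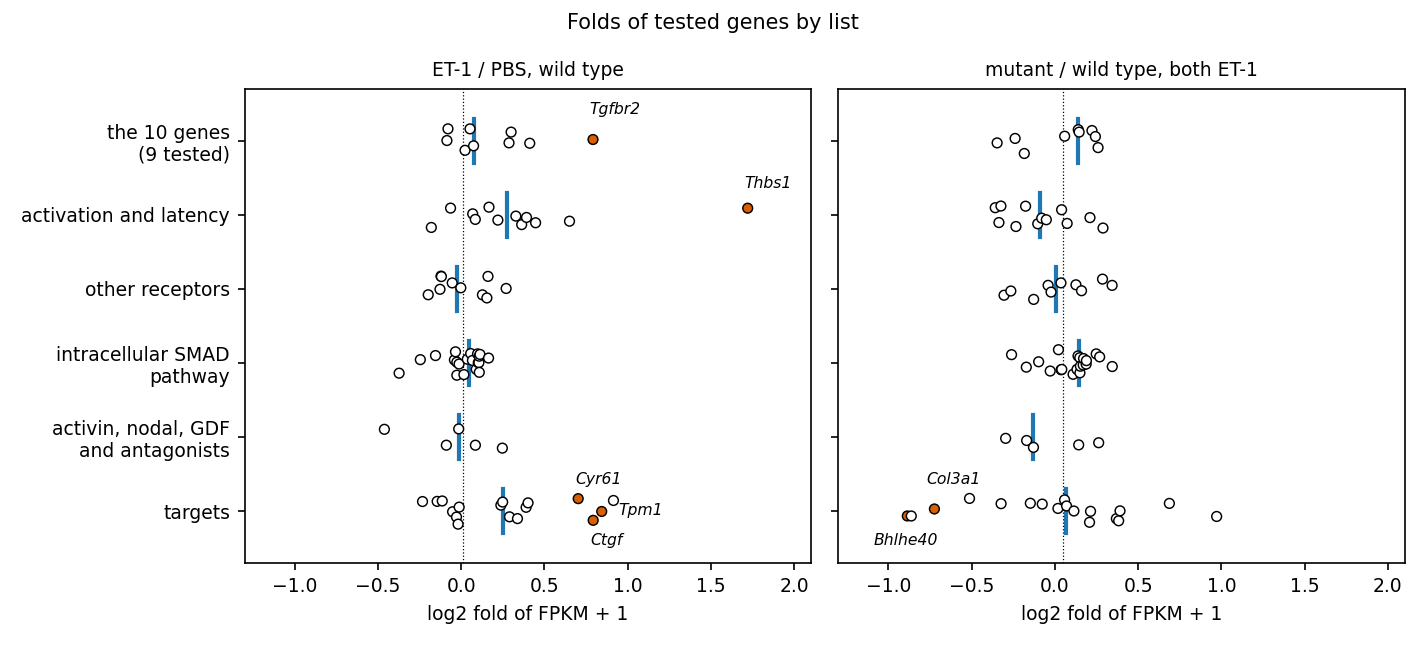
Log2 fold of FPKM + 1 for each tested gene of the 10 and of each pathway list, with ET-1 against PBS in wild type (left) and in mutant against wild-type cells given ET-1 (right), with filled and named points for called genes, a blue bar at each list's median and a dotted line at the median of all genes tested. On the left the filled points are Tgfbr2, Thbs1, Cyr61, Ctgf and Tpm1, and on the right Bhlhe40 and Col3a1.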

How the data were processed

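Column-purified RNA was amplified and made into libraries with NuGEN kits, per the labels' protocols. Per the submitters' processing notes, the authors used TopHat 1.3.1, Cufflinks 1.3.0, Cuffdiff and build mm9. The authors deposited an FPKM value per group and, per the file headers, a p-value for each of 2 comparisons, judged unadjusted because nearly every gene had its own. The sources used here do not state the test behind them or how the 3 samples of a group entered it. A second deposited table holds an induction fold, a ratio normalized by the authors. Both tables give positions whose starts count from 0, and 1 was added to each start.

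In 15639 rows both wild-type values were whole numbers with a p-value of 1, and these were read as reads of genes too low to test. FPKM was present in all 3 groups for 17757 genes. P-values were adjusted by Benjamini-Hochberg over genes measured in FPKM in each group compared and reaching 1 FPKM in 1 of them. Folds are log2 of FPKM + 1, which understates low genes, and ratios carry no pseudocount. Pooled reads came from the depth at which single-exon genes give whole reads (within 0.02 for 93.6% of 1264 PBS values, 93.6% of 1265 ET-1 values and 93.8% of 1264 mutant values) and, for each gene, the largest length giving whole reads in the 3 groups without exceeding its GENCODE M21 exon length by over 5%. Between 2 and 6 lengths fitted each of the 10 genes, so interval widths are uncertain. Of 50-base words in the transcripts, 8.79% were shared with other genes for Tgfb3, 3.85% for Tgfbr3 and at most 1.4% for the others.

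The genes and lists were chosen with earlier results of these data known. From each list, called genes and the 3 most abundant are named. Calls and read recovery were tested on simulated data. Python 3.11.15, numpy 2.4.6, pandas 2.3.3 and scipy 1.17.1 were used. There were 0 columns belonging to other samples. Some genes of the lists are not reported here.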

Additional observations from a re-analysis of the deposited data

How the results depend on the processing

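The rise of Tgfbr2 with ET-1 was called with and without the filter on low values and was not tested at 5 FPKM or more, where 0 of the 10 genes were called higher. Its log2 fold was 0.79 with a pseudocount of 1, 1.38 with 0.1 and 1.51 with none, and 0.78 centred on the median of all genes tested. Without adjustment 384 genes were higher and 310 lower with ET-1, and 688 and 1100 in the mutant, where 1 of the 10 genes, Tgfbr2, was then lower (log2 fold -0.35). With a ratio of at least 2 as well, 27 and 11 genes were called with ET-1 and 85 and 377 in the mutant, against 60 and 22, and 183 and 580, without that requirement. The log2 fold of Tgfbr2 in the mutant against PBS was 0.45, 0.84 and 0.94 with pseudocounts of 1, 0.1 and none. For the other 9 genes each alternative that gave a value kept direction and call. Leaving out a sample was not possible with group values. No paired analysis was possible because the deposited values are per group and the sample numbers are not shared between groups. The level of Tgfb1 rests on at most 171 reads, and its deposited p-values were left out of the adjustment.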

Other observations

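Further genes of the pathway were under 1 FPKM in both groups of a comparison, were left out of the adjustment, and are named with their values known. Acvrl1, a type I receptor known from endothelium, was at 0.270 FPKM after PBS, 0.610 FPKM after ET-1 and 0.582 FPKM in mutant cells, and the coreceptor gene Eng at 0.442, 0.740 and 0.544 FPKM. Of the 5 endothelial markers with values in FPKM, Pecam1 and Cdh5 stood at 0.303 FPKM with ET-1 against 0.483 with PBS and at 0.0904 against 0.464, Tek at 0.311 against 0.168, Kdr at 0.402 against 0.377 and Egfl7 at 1.66 against 1.65. Their sum was 2.77 FPKM against 3.14 FPKM, and the part of endothelial cells in these values was not tested. Nodal was at 0.644, 0.169 and 0.498 FPKM and Inhba, an activin subunit, at 0.523, 0.206 and 0.327 FPKM, both lowest in wild type with ET-1. Unadjusted deposited p-values with ET-1 were 0.199 for Acvrl1, 0.375 for Eng, 0.165 for Nodal and 0.394 for Inhba.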
